A study of Mus musculus with 6 samples.

Results

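The transducers that couple G protein-coupled receptors to the cell were examined in the liver: the G protein alpha subunit genes Gnas, Gnai1, Gnai2, Gnai3, Gnaq, Gna11, Gna12 and Gna13 and the beta-arrestin genes Arrb1 and Arrb2. They were chosen by gene symbol, and the array gave all 10 a value, out of 22180 genes with a probe set of a single symbol. RNA came from livers of 3 male mice with a whole-body knockout (KO) of the receptor gene Gpr146 and from 3 male wild-type (WT) littermates, all 24 weeks old, on chow and of C57BL/6J background. The mice had 16 hours without food and then 6 hours of refeeding before sampling, and each liver was hybridised to 1 whole-transcript Affymetrix array. No source used here says how the knockout allele was made or which part of the gene it removes.

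A heterotrimeric G protein consists of an alpha subunit that binds GTP and a beta-gamma dimer, and the alpha subunit decides which enzyme an active receptor reaches. Gs stimulates adenylyl cyclase, the Gi proteins inhibit it, Gq and G11 activate phospholipase C beta, and G12 and G13 act on the cytoskeleton through guanine nucleotide exchange factors. Beta-arrestins bind receptors that have been phosphorylated by receptor kinases, end their coupling to G proteins, carry them to clathrin-coated pits and serve as scaffolds for kinases such as ERK. In hepatocytes, glucagon acts through Gs on glucose output, whereas vasopressin, angiotensin and noradrenaline act largely through Gq and G11 on calcium. The comparison of KO with WT asks whether the genes for these shared transducers differ in a liver that lacks 1 receptor.

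Values are log2 signals as the authors deposited them, and differences are KO minus WT. Array medians lay between 2.67 and 2.73, and the pairwise correlations between arrays were 0.983 to 0.988. The hepatocyte product Alb was at 11.91 ± 0.01 in KO and 11.92 ± 0.02 in WT livers (mean ± SD, n = 3 each). Gpr146 itself measured 4.61, 4.28 and 3.87 in KO mice 1 to 3, against 5.96, 5.56 and 5.65 in WT mice 1 to 3, a difference of -1.47 ± 0.19 (SE) with a limma adjusted p of 0.0702 (0.0204 to 0.268 over the alternatives run). Since the deleted part is unknown here, the KO signal is no measure of residual receptor. A further probe set that names Gpr146 but is not assigned to a single gene was left out. The test covered the 11090 genes whose mean signal was in the upper 50%, from 2.99 upwards, and these included all 10 transducer genes.

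None of the 10 transducer genes passed a Benjamini-Hochberg adjusted p of 0.05 in limma, where 0.0361% of all genes tested did so (4 genes). Their adjusted p-values started at 0.533. Arrb2 alone had an unadjusted limma p under 0.05, which is 1 of 10 genes against 9.13% of all genes tested, and it alone had groups that did not overlap, against 14.8% of all genes tested. KO lay wholly above WT in 1 of the 10, against 9.63% of all genes tested, and wholly below WT in 0, against 5.16%. Means were higher in KO for 3 of the genes (Gnai3, Gnaq and Arrb2) and lower for 7, with a median difference of -0.053, beside a median of 0.027 over all genes tested. The median size of a difference, without regard to sign, was 0.089 for the transducers and 0.098 for all genes tested.

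Standard errors of the 10 differences lay between 0.085 and 0.12, and the 95% intervals ran no lower than -0.47 and no higher than 0.41. All 10 intervals therefore lay inside a 1.5-fold change in either direction, and 9 of them included 0. Within groups the median SD was 0.091 over the 10 genes and 0.14 over all genes tested. Weak signals on an array understate folds, so these bounds refer to signal and not to transcript number. In whole liver, fewer cells of a type and less RNA per cell cannot be told apart.

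**Figure D1:**
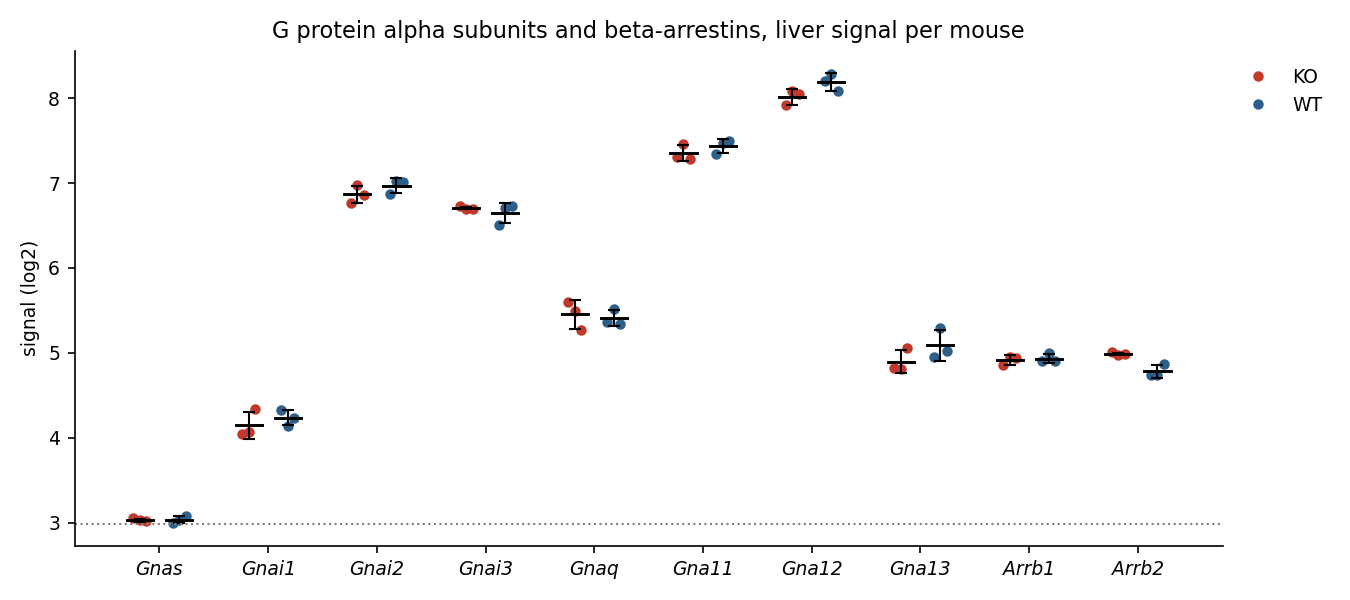
Log2 signal of the 10 transducer genes in each mouse, KO (left of each pair) and WT (right), with group mean and SD (n = 3 each). The dotted line is the lowest mean signal of a tested gene, 2.99; KO and WT points interleave for every gene except Arrb2.

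The promoters of the G12 class are shown because Gna12 and Gna13 had the lowest differences of the 10. RefSeq promoter windows (GRCm38.p6, from 250 bases before to 50 bases after a transcript's start) were matched for 7 of the 10 genes, and Gnas had several annotated starts, which gave 10 windows. Each sequence is written 5′ to 3′ on the gene's strand, and capitals mark the GC box, a promoter motif bound by Sp1-type factors, searched as GGGCGG and its reverse complement CCGCCC with overlapping matches joined.
Gna12, chr5:140830382-140830681, minus strand: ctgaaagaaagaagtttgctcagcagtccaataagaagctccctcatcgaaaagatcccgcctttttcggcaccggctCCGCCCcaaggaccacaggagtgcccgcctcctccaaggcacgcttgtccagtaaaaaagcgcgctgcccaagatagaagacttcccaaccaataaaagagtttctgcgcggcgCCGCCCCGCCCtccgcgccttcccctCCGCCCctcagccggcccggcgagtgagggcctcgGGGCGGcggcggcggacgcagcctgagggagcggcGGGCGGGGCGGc
Gna13, chr11:109362544-109362843, plus strand: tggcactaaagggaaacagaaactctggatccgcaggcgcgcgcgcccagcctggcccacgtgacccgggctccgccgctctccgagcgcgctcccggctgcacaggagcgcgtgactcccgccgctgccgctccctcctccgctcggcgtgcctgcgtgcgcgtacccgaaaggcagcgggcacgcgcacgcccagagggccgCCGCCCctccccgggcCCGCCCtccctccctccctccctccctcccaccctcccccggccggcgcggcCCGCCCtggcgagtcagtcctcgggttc
The Gna12 window holds 7 GC box matches and 30 CG dinucleotides at 65.7% G and C, and the Gna13 window holds 3 matches and 40 CG dinucleotides at 76.7% G and C. Over all 32851 promoter windows the medians were 7 CG dinucleotides and 52.7% G and C. A GC box was present in 7 of the 10 transducer windows (Gnas at a pair of its starts, Gnai1, Gnaq, Gna11, Gna12 and Gna13) and in 35.7% of all windows. Some Gnas windows overlap each other, so the 10 windows are not 10 separate promoters. The cAMP response element TGACGTCA, its own reverse complement, was in 0 of the 10 windows and in 1.79% of all windows. These are matches of letters in short windows, with no measurement of binding.

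Gnas encodes the alpha subunit of Gs, and its locus is imprinted and gives several transcripts with different first exons. Its probe set read 3.05, 3.03 and 3.02 in KO mice 1 to 3, against 3.00, 3.03 and 3.08 in WT mice 1 to 3. The groups overlapped fully, and the range over the 6 arrays, 0.079, was the narrowest of the 10 genes. The difference was -0.0035 ± 0.085 (SE; limma adjusted p = 0.994). The signal lay just above the filter, where an array responds little, so the narrow spread bounds this probe set more than it bounds the transcript. A further probe set lists Gnas together with the antisense gene Gnasas1 and was left out.

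The alpha subunits of the Gi class come from 3 genes. Gnai1 read 4.04, 4.07 and 4.33 in KO mice 1 to 3, against 4.33, 4.15 and 4.24 in WT mice 1 to 3, and KO mouse 3 was the highest of all 6. Gnai2, the Gi alpha subunit that is also abundant in blood cells, read 6.77, 6.97 and 6.86 in KO mice, against 6.87, 7.02 and 7.02 in WT mice. There KO mouse 1 was the lowest and KO mouse 2 lay inside the WT range. Gnai3 read 6.72, 6.70 and 6.70 in KO mice, against 6.51, 6.71 and 6.73 in WT mice, so the KO values were tight and sat inside a wider WT spread set by WT mouse 1. The differences were -0.09 ± 0.11 for Gnai1, -0.10 ± 0.10 for Gnai2 and 0.06 ± 0.10 for Gnai3 (SE), with limma adjusted p-values of 0.850, 0.790 and 0.894. Without WT mouse 1 the Gnai3 difference was -0.011.

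Gnaq and Gna11 encode the close paralogues that activate phospholipase C beta. Gnaq read 5.60, 5.49 and 5.27 in KO mice 1 to 3, against 5.37, 5.51 and 5.34 in WT mice 1 to 3. KO mice held both the highest and the lowest value. Gna11 read 7.31, 7.46 and 7.29 in KO mice, against 7.35, 7.47 and 7.50 in WT mice, and KO mouse 2 lay among the WT values. The differences were 0.05 ± 0.11 for Gnaq (SE; limma adjusted p = 0.930) and -0.09 ± 0.10 for Gna11 (limma adjusted p = 0.825). Gnaq lay on either side of 0 as single mice were left out, between -0.027 and 0.14.

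Gna12 and Gna13 encode the alpha subunits of the class that acts on the cytoskeleton. Gna12 read 7.91, 8.09 and 8.04 in KO mice 1 to 3, against 8.20, 8.29 and 8.08 in WT mice 1 to 3. The groups met at 1 point only, since KO mouse 2 lay marginally above WT mouse 3. The difference was -0.17 ± 0.10 (SE), with an unadjusted limma p of 0.114, an adjusted p of 0.631 and an exact two-sided permutation p of 0.2. Gna12 lies on chromosome 5 within 5 Mb of Gpr146 in the GRCm38.p6 reference, with 23 protein-coding genes between them. Gnai1 is on the same chromosome but beyond that distance. Whether the position of Gna12 has a part in its difference was not tested.

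Gna13 had the widest spread of the 10 genes, 0.48 over the 6 arrays. It read 4.82, 4.81 and 5.05 in KO mice 1 to 3, against 4.95, 5.29 and 5.02 in WT mice 1 to 3, and KO mouse 3 lay inside the WT range. The difference was -0.19 ± 0.12 (SE), with an unadjusted limma p of 0.149 and an adjusted p of 0.668. WT mouse 2 was the highest of all 6, and without it the difference was -0.091. With quantile normalization the difference was -0.25 at an unadjusted p of 0.0439 and did not pass adjustment.

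**Figure D2:**
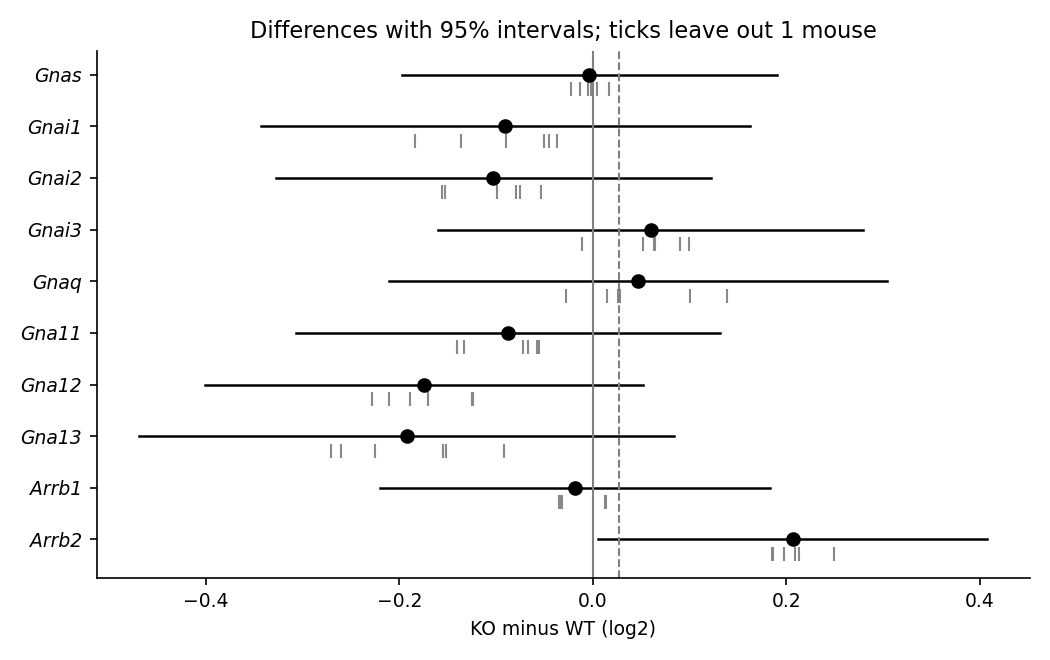
KO minus WT difference in log2 signal of each transducer gene (dot) with its 95% limma interval (line), and the 6 values obtained with 1 mouse left out (grey ticks). The dashed line is the median of all genes tested, 0.027; every interval except that of Arrb2 includes 0.

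Arrb1 and Arrb2 encode the 2 beta-arrestins found outside the retina. Arrb1 read 4.85, 4.95 and 4.94 in KO mice 1 to 3, against 4.90, 4.99 and 4.90 in WT mice 1 to 3, and the groups overlapped (difference -0.018 ± 0.088, SE; limma adjusted p = 0.970). Arrb2 read 5.01, 4.98 and 4.98 in KO mice, against 4.74, 4.74 and 4.87 in WT mice. Every KO mouse lay above every WT mouse, with a gap of 0.11 between the lowest KO and the highest WT value and a range of 0.031 among KO mice. Arrb2 differed by 0.21 ± 0.09 (SE), which corresponds to 1.15-fold more signal in KO, with a 95% interval of 0.0054 to 0.41. It did not pass adjustment: the unadjusted limma p was 0.0453, the adjusted p 0.533, and the exact two-sided permutation p 0.1, the smallest that 3 against 3 allows.

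Under the 14 alternatives run for it the Arrb2 difference was between 0.13 and 0.25, with an unadjusted limma p under 0.05 in 5 of them. Its sign is no sign of stability: with groups that do not overlap, leaving out a mouse cannot change it. Several other alternatives, such as dropping the filter, leave the difference as it was. The difference between the paralogues was examined after the values were seen. The log2 ratio of Arrb2 to Arrb1 within an array was 0.15, 0.025 and 0.039 in KO mice 1 to 3, against -0.16, -0.26 and -0.038 in WT mice 1 to 3. The KO ratios lay above the WT ratios by 0.22 on average (exact two-sided permutation p = 0.1, the smallest possible here). This refers to the change between groups and not to which arrestin is more abundant. The ratio reuses the Arrb2 values, whose groups already stood apart, and Arrb1 hardly differed. Its separation therefore adds nothing about Arrb2.

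Beta-arrestins and Gnai2 are also expressed by blood cells, so marker genes of other cells were read on the same arrays. Summed signals overlapped between KO and WT in 11 of the 12 marker lists. The 8 Kupffer cell markers, all above the filter, summed on the linear scale to between 375 and 583 in KO and between 347 and 593 in WT livers. The 8 neutrophil and monocyte markers summed to 137 to 173 in KO and 127 to 180 in WT livers. All of them except Lyz2 were below the filter, so this sum mostly follows Lyz2. The list whose sums stood apart was that of bile duct cells, at 86.2 to 102.0 in KO and 69.6 to 85.6 in WT livers, over 5 of 6 markers measured. Of these, Krt19, Epcam and Cldn7 were below the filter, and the array reads no gene at 0. Sox9 alone set that gap, at 57.5 to 72.9 in KO and 41.8 to 55.8 in WT livers. Without Sox9, a choice made after the values were seen, the other 4 markers summed to 28.3 to 29.1 in KO and 27.0 to 29.8 in WT livers and overlapped, and the median difference of the 5 markers was -0.014. The part of bile duct cells in the Arrb2 difference was not tested.

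Among the other genes tested, the ones most like Arrb2 over the 6 arrays were Zfp354a, a zinc finger gene (Pearson r = 0.981), Rdh7, a retinol dehydrogenase (r = 0.978), and Rbm33, an RNA-binding protein gene (r = 0.978). With 6 arrays such values are common: 137 of 10556 genes compared had an r above 0.9 with Arrb2. Zfp354a read 4.53, 4.46 and 4.52 in KO mice 1 to 3, against 3.70, 3.75 and 3.94 in WT mice 1 to 3. As it was picked for likeness to Arrb2 over these same arrays, its shared pattern adds nothing about Arrb2.

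Other genes of G protein signalling were read from lists of 137 symbols, of which 124 had a single-gene probe set and 75 were tested. Those without such a probe set included Grk2, Gnb2, Adcy3, Itpr1 and Rock2. None of the 75 passed the adjusted threshold. At an unadjusted limma p under 0.05 there were 7 higher in KO, against 6.16% of all genes tested, and 2 lower, against 2.98%, which is 12% of the 75 genes in all against 9.13%. Of the 2 lower genes, Rgs14 had a KO mean below the filter. The median difference over the 75 genes was 0.059. KO lay wholly above WT in 9 of the 75, against 9.63% of all genes tested, and wholly below WT in 3, against 5.16%. The count at an unadjusted limma p under 0.05 was 4 without WT mouse 3, where 8.98% of all genes tested passed. It was also 4 without KO mouse 3, where 6.95% passed.

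**Figure D3:**
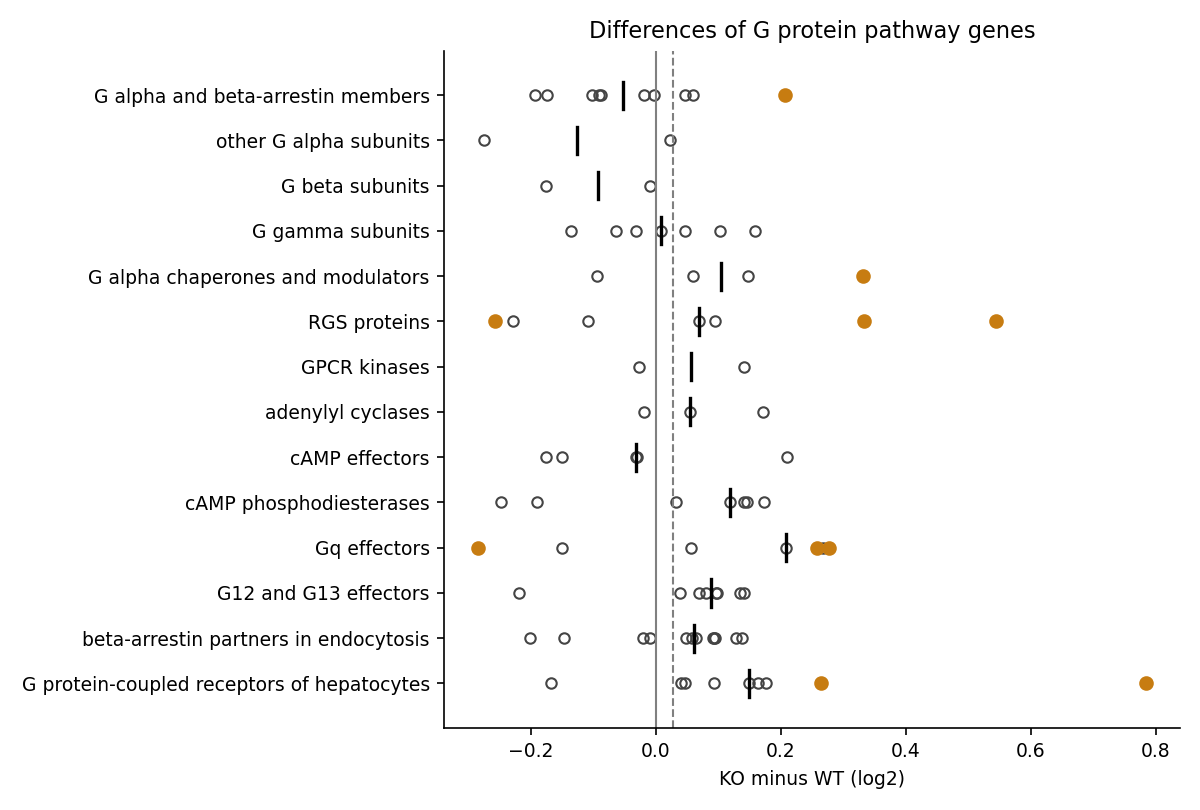
KO minus WT difference in log2 signal of each tested gene, by list. Filled points have an unadjusted limma p under 0.05, open points do not, black bars are list medians, and the dashed line is the median of all genes tested; Avpr1a, at 0.78, lies farthest out.

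No partner of the alpha subunits passed adjustment. Of 8 further alpha subunit genes, mostly of brain, retina, taste or blood cells, 6 lay below the filter. Gna14, of the Gq class, was at -0.28 ± 0.12 (SE; limma adjusted p = 0.547) and Gnat1, rod transducin, at 0.022 ± 0.12 (adjusted p = 0.975). Both visual arrestin genes, Sag and Arr3, were below the filter. Among beta subunits, Gnb1 was at -0.0091 ± 0.091 and Gnb4 at -0.18 ± 0.11, and among 7 gamma subunits tested the differences ran from -0.14 for Gng2 to 0.16, with Gng12 at 0.10 ± 0.10 (0.039 without KO mouse 1). Gnb4 was at -0.10 without WT mouse 1 and Gng2 at -0.086 without WT mouse 3. The Gnb4 mean was 2.92 in KO, below the filter, and 3.09 in WT, so it was tested only through its WT values. No gene of the beta or gamma lists had an unadjusted limma p under 0.05, where 9.13% of all genes tested did.

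Regulators of the alpha subunits were read next, and none passed adjustment. Gpsm2, which holds Gi alpha in its GDP form and orients the mitotic spindle, read 4.58, 4.88 and 4.81 in KO mice 1 to 3, against 4.62, 4.33 and 4.31 in WT mice 1 to 3. KO mouse 1 fell below WT mouse 1, and the difference was 0.33 ± 0.12 (SE; limma adjusted p = 0.478). Ric8b, a chaperone of Gs alpha, was at 0.15 ± 0.13, and at 0.0083 without WT mouse 1. The RGS proteins speed up GTP hydrolysis by alpha subunits, and 7 of 20 were tested. Rgs5, found in pericytes and smooth muscle, read 6.02, 5.82 and 6.24 in KO mice, against 5.65, 5.70 and 5.74 in WT mice, without overlap (0.33 ± 0.12, limma adjusted p = 0.442). These values are those of its highest-mean probe set, and with the mean of its probe sets the Rgs5 difference was 0.26. With a mouse left out it ran from 0.23 (without KO mouse 3) to 0.43 (without KO mouse 2). Summed smooth muscle markers were 46.2 to 62.5 in KO, highest in KO mouse 1, and 46.1 to 51.8 in WT livers. Their median difference was 0.048. Summed stellate cell markers were 461 to 545 in KO and 462 to 599 in WT livers, with a median difference of -0.18. The part of these cells in the Rgs5 difference was not tested.

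Rgs16, a regulator of Gi and Gq proteins, read 8.78, 7.82 and 7.99 in KO mice 1 to 3, against 7.44, 7.83 and 7.68 in WT mice 1 to 3. KO mouse 1 stood above all others, and the difference of 0.54 ± 0.23 (SE; limma adjusted p = 0.528) was 0.25 without that mouse. Rgs14, named after its value was seen, was at -0.26 ± 0.11 (limma adjusted p = 0.532). Its mean was 2.89 in KO, below the filter of 2.99, and 3.14 in WT. It was therefore tested only through its WT values, and its difference is that of a signal at the floor. The receptor kinases that prepare receptors for arrestin binding were represented by Grk5, at 0.14 ± 0.15 (0.048 without KO mouse 1 and 0.31 without KO mouse 2), and Grk6, at -0.026 ± 0.13. Grk2 had no single-gene probe set, and 3 of the 5 kinases measured were below the filter. The 12 arrestin partners in endocytosis, among them clathrin and AP2 subunits, were all tested. They had 0 genes at an unadjusted limma p under 0.05, where 9.13% of all genes tested passed it. The lowest p-values there were those of Arf6, at -0.20 ± 0.13 (-0.074 without KO mouse 1), and Mdm2, at -0.15 ± 0.10 (-0.22 without WT mouse 1).

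Effectors were read by class. On the Gs and Gi side the adenylyl cyclases Adcy9 and Adcy4 were at 0.17 ± 0.10 and 0.055 ± 0.12 (SE), and Adcy9 at 0.10 without WT mouse 1. The protein kinase A subunit genes Prkar1a and Prkaca were at -0.18 ± 0.09 and -0.15 ± 0.10, and Prkaca at -0.090 without KO mouse 1. Prkar1a read 5.72, 5.66 and 5.73 in KO mice 1 to 3, against 5.94, 5.84 and 5.86 in WT mice 1 to 3, so its groups stood apart (limma adjusted p = 0.592). The cAMP phosphodiesterases Pde4b and Pde8a were at -0.25 ± 0.14 and 0.15 ± 0.10, and at -0.096 and 0.083 without KO mouse 3. Among effectors of G12 and G13, 7 of 8 tested genes had a positive difference, where 57.7% of all genes tested had one. An unadjusted limma p under 0.05 was found for 0 of the 8, against 9.13% of all genes tested. Rhob was at -0.22 ± 0.13 and the exchange factor Arhgef11 at 0.14 ± 0.12. Without WT mouse 1 they were at -0.34 and 0.036.

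Of the 7 Gq effector genes tested, 3 had an unadjusted p under 0.05, where 9.13% of all genes tested did; KO livers were higher for 2 and lower for 1. Itpr2, the main inositol trisphosphate receptor of hepatocytes, read 6.04, 6.12 and 6.12 in KO mice 1 to 3, against 5.88, 5.89 and 5.74 in WT mice 1 to 3. The groups did not overlap, and the difference was 0.26 ± 0.09 (SE; limma adjusted p = 0.442). Plcb3, a phospholipase C beta gene named after its value was seen, was at 0.28 ± 0.12 (limma adjusted p = 0.528). Prkcb, a protein kinase C gene expressed in lymphoid cells, read 3.25, 3.37 and 3.31 in KO mice, against 3.67, 3.51 and 3.60 in WT mice. Its difference was -0.28 ± 0.09 (limma adjusted p = 0.413). Summed B and plasma cell markers, 4 of 5 of them below the filter, overlapped at 33.1 to 37.2 in KO and 29.0 to 37.9 in WT livers.

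Receptors that use these G proteins in hepatocytes held the largest difference of all the lists. Avpr1a, the vasopressin receptor that couples to Gq and G11, read 5.62, 6.00 and 5.75 in KO mice 1 to 3, against 5.002, 4.72 and 5.29 in WT mice 1 to 3. The lowest KO mouse was above the highest WT mouse. Avpr1a differed by 0.78 ± 0.16 (SE), or 1.72-fold more signal in KO, with a limma adjusted p of 0.273. It ranked number 38 by p among the 11090 genes. Under the 15 alternatives its difference stayed between 0.57 and 0.93, with adjusted p-values from 0.0517 to 0.474, so it passed in none of them.

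Gcgr, the glucagon receptor that couples to Gs, read 7.22, 7.23 and 7.12 in KO mice 1 to 3, against 6.88, 6.97 and 6.92 in WT mice 1 to 3. The groups stood apart, with a difference of 0.26 ± 0.09 (SE; limma adjusted p = 0.423) and a 95% interval of 0.064 to 0.47. Of the 9 receptor genes tested, 8 had a positive difference, where 57.7% of all genes tested had one.

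**Figure D4:**
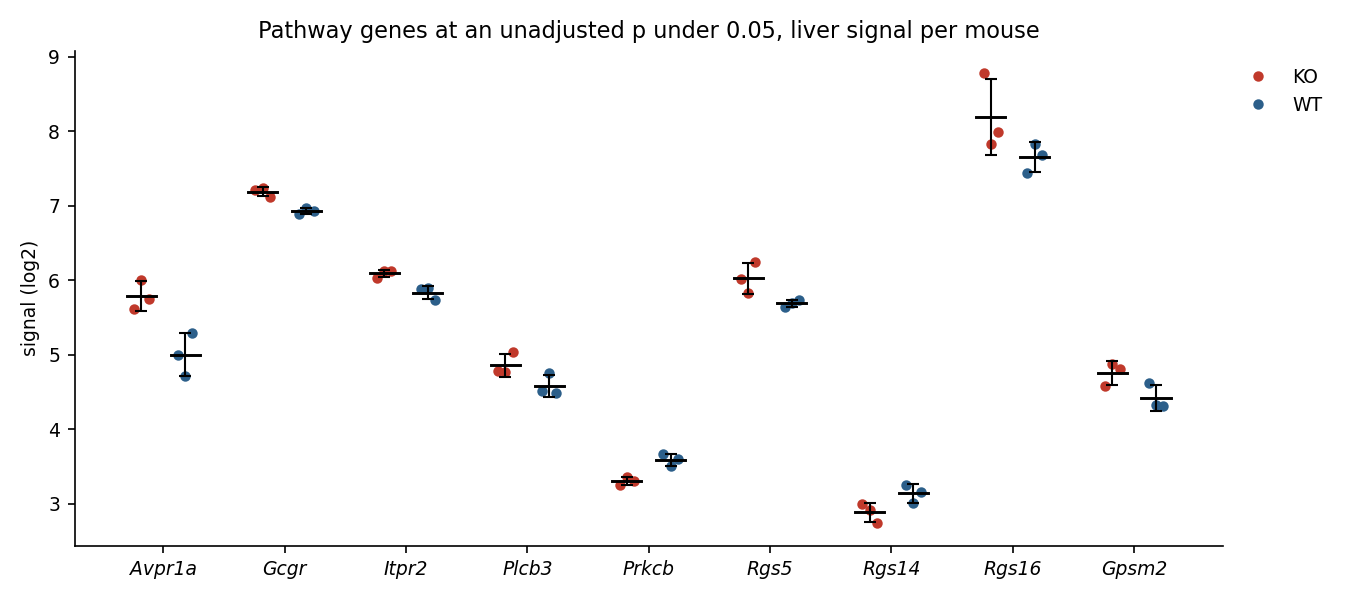
Log2 signal per mouse of the 9 pathway genes with an unadjusted limma p under 0.05, KO (left) and WT (right), with group mean and SD (n = 3 each). Points of KO and WT do not overlap except for Rgs16 and Gpsm2, and none of the 9 passed adjustment. The genes were picked by that p, which favours groups that stand apart. The KO mean of Rgs14, 2.89, lies below the filter.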

How the data were processed

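Per the labels' protocols, total RNA was taken from liver by Trizol extraction and turned into biotinylated cRNA for a whole-transcript Affymetrix array. The authors deposited 1 table of log2 values for 41345 probe sets and 6 mice, with summary and normalization methods not given in the sources used here. Maxima of 12.1 to 12.2, above 11.1, the natural log of a 16-bit scanner's maximum, point to a log2 scale.

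Probe sets of a single symbol took their names from the platform annotation, with current symbols looked up by Entrez number, and the highest-mean probe set of a gene was used. KO and WT were compared with limma 3.58.1 in R 4.3.3 (lmFit, eBayes, two-sided, no covariate, Benjamini-Hochberg at 0.05) over the upper 50% of genes by mean signal, and the code was tested on simulated data. Single genes were also compared by exact permutation with scipy 1.17.1. Array number limits precision. Probe sequences were not used, so cross-hybridisation between paralogues was not checked, and signals of different genes are not ranked.

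The genes and lists were chosen with earlier results of these data known. From each pathway list the 2 genes of smallest p were named, as none passed. Alternatives covered the filter, probe set choice, normalization, a pseudocount of 16, the variance model, array weights, a replicate block and leaving out each mouse.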

Additional observations from a re-analysis of the deposited data

How the results depend on the processing

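In each of the 15 alternatives, 0 of the transducer genes and 0 pathway genes passed adjustment; in the upper 25% of signal only 5 transducer genes were tested. Over all genes 4 passed, against 0 in the upper 25% of signal, 1 with the pseudocount, 1 with the replicate block and 1 to 51 with a mouse left out (51 without WT mouse 3). The single transducer gene at an unadjusted p under 0.05 became 0 in the upper 25% of signal, where Arrb2 was below the filter and not tested. It was also 0 with median centring, with the replicate block and with the trend and robust options, and 0 to 1 with a mouse left out (1 without WT mouse 3); with quantile normalization it was Gna13 in place of Arrb2. Pathway genes at that level numbered 9 of 75, against 14 with no filter, where all 124 with a probe set were tested. There were 5 in the upper 25% and 4 to 11 with a mouse left out. The share of all genes tested at that level was 9.13%, against 7.48% with no filter. It was 10.2% in the upper 25% and 6.95% to 9.22% with a mouse left out. The median over the transducers stayed between -0.088 and -0.030. KO and WT mice were not treated as paired, since same-numbered mice share only a number in the labels. Deviations of same-numbered mice correlated at 0.0551, -0.187 and 0.147, and those of other pairs at -0.268 to 0.241. So few pairs cannot exclude a pairing.

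Differences near 0 changed sign. With quantile normalization Gnaq was at -0.00060, Gnat1 at -0.0097 and Adcy4 at -0.0040. With a mouse left out the ranges were -0.022 to 0.017 for Gnas, -0.011 to 0.099 for Gnai3, -0.027 to 0.14 for Gnaq, -0.035 to 0.013 for Arrb1, -0.041 to 0.14 for Gnat1, -0.041 to 0.031 for Gnb1, -0.11 to 0.094 for Grk6 and -0.059 to 0.13 for Adcy4. The causes were not tested.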
